A study of Mus musculus with 6 samples.

Results

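The nuclear genes that encode subunits of the mitochondrial respiratory chain and of the ATP synthase were described in primary myoblasts labelled Rev-/- and WT. They were taken by symbol, as the array genes whose names begin with Nduf and a letter a, b, c, s or v followed by a digit (complex I), Sdha to Sdhd (complex II), names beginning with Uqcr (complex III), names beginning with Cox and a digit of the classes used for subunits (complex IV), and names beginning with Atp5 (complex V). The rule found 78 genes on 118 probes, of 19057 genes named on the array. They comprised 35 genes of complex I, 4 of complex II, 7 of complex III, 16 of complex IV and 16 of complex V. A gene was tested, on its brightest such probe, when a probe of it lay above background on at least 3 of the 6 arrays, and 73 of the 78 genes passed, of 11580 genes tested in all. The other 5, Ndufs1, Sdha, Uqcrfs1, Cox7b2 and Cox8c, were not above background on enough arrays and are given no fold change. Ndufs5-ps, which the rule takes into complex I, is the symbol of a pseudogene, and Ndufa4, counted here with complex I by its name, is nowadays usually placed with cytochrome c oxidase.

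Oxidative phosphorylation passes electrons from NADH through complex I, and from succinate through complex II, to ubiquinone, then through complex III and cytochrome c to complex IV, where oxygen is reduced. Complexes I, III and IV pump protons across the inner mitochondrial membrane, and complex V, the ATP synthase, uses the gradient to make ATP. Most subunits are encoded in the nucleus and a small set in mitochondrial DNA, so both genomes must supply each complex except complex II, which is wholly nuclear. In striated muscle 3 subunits of complex IV are made in muscle forms, Cox6a2, Cox7a1 and Cox8b, beside the forms used in other tissues, Cox6a1, Cox7a2 and Cox8a. Rev-erbα, encoded by Nr1d1, is a nuclear receptor of the circadian clock that represses transcription from DNA elements called ROREs, and its loss has been studied for oxidative capacity of muscle.

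The 6 samples, 3 labelled Rev-/- and 3 labelled WT, were each hybridised to 1 Illumina bead array that covers the mouse transcriptome. Rev-/- mice carry a global null allele of Rev-erbα, so every tissue of the animal lacks it, and the methods describe littermate WT controls. All samples were from male C57BL/6 mice, whose labelled age was 6 weeks, while the methods give a younger age for the isolation of myoblasts from hind limb muscle. Both labels were kept in the same growth medium, with FBS at 20% and bFGF at 5 ng/ml, which keeps myoblasts dividing. The sources call the 3 samples of a label independent and do not say that each came from its own animal, so the p-values measure only the spread between these arrays, which may be technical.

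Levels are log2 of the quantile-normalized probe signal, on which the top of the scale was 14.78, and a fold change is the mean of the Rev-/- arrays minus that of the WT arrays. The number of arrays limits the precision of every comparison. The deposited median signal was 98.4 to 106.9 per array, and 19982 to 22268 probes lay above background. The Rev-/- label could not be checked on its own gene, so Rev-/- and WT stand below for the arrays so labelled. Nr1d1 had log2 signals of 7.01, 6.51 and 7.14 on the arrays labelled Rev-/-, against 6.59, 6.54 and 7.22 on the arrays labelled WT. It was above background on 3 arrays and did not follow the labels, and it is not known here whether its probe lies in the deleted part. Arntl, the clock gene that Rev-erbα is known to repress, had 7.30, 7.38 and 7.27 on the Rev-/- arrays, against 7.64, 7.52 and 7.28 on the WT arrays (−0.16, SE 0.097), so it was not higher in Rev-/- and the labels overlapped. The labelled cell type was only partly borne out. The myoblast genes Pax7 and Myf5 were above background on 0 arrays and Pax3 on 1. Myod1, Myog, Cdh15, Itga7 and Vcam1 were above background on 6 arrays. Myod1 lay between 7.84 and 8.08, Myog between 8.40 and 8.98 and Cdh15 between 9.12 and 9.76. Itga7 lay between 9.08 and 9.45 and Vcam1 between 8.36 and 9.22. Genes of differentiated muscle were among the strong signals, with Myh8 between 14.48 and 14.68, Ckm between 13.88 and 14.13 and Atp2a1 between 14.30 and 14.39. The 12 fast fibre markers on the array were all above background on at least 3 arrays. So were 8 of 8 endothelial, 7 of 9 leukocyte and 8 of 10 adipocyte markers. Markers of mature fibres and of other cell types were thus measured beside the myoblast genes, and which cells gave them was not tested. Of the red cell genes, Hba-a1 lay between 14.22 and 14.60 and Hbb-b2 between 6.82 and 7.06. Alas2 lay between 9.06 and 10.90 and Slc4a1 between 8.72 and 13.21. Both were highest on Rev-/- 1, while Hba-a1 was highest on WT 3 and Hbb-b2 on Rev-/- 3.

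Array Rev-/- 1 stood apart. Its mean correlation with the other arrays was 0.983, against 0.991 to 0.992 for each of those. It also carried markers of bone and of neutrophils. The 6 tested of 8 bone markers on the array, summed on the linear scale, reached 15351 on Rev-/- 1, against 669.9 and 742 on Rev-/- 2 and 3 and 684 to 873 on the WT arrays, and Dmp1 and Phex, above background on 1 and 2 arrays and so not tested, were also highest on Rev-/- 1. The 8 neutrophil markers, all tested, summed to 17670 on Rev-/- 1, 1022 on Rev-/- 2 and 2555 on Rev-/- 3, against 938 to 3323 on the WT arrays. Medians and many single fold changes are given with and without it, and other values are from all 6 arrays.

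The promoters of the members give the sequence context in which Rev-erbα and the known regulators of these genes could bind. RefSeq promoter windows on mouse build GRCm38.p6, of 250 bases before and 50 after the start, were matched by gene identifier for 64 of the 78 members, in 69 windows of 300 bases. Each was searched on both strands for a RORE core (TAGGTCA), for the site of the estrogen-related receptors (CAAGGTCA, which shares the letters AGGTCA with the RORE core though neither contains the other), for the core of an NRF1 site (GCGCATGC, which overlaps its own reverse complement) and for an ETS core of the kind GABPA binds (CCGGAAG). The RORE core was present in 3 member windows (4.35%, against 2.61% of 32851 windows of all genes), those of Cox7b, Ndufa11 and Ndufb10. The site of the estrogen-related receptors was present in 3 (4.35%, against 1.56%), those of Atp5g3, Atp5l and Sdhd. The NRF1 core was present in 10 (14.5%, against 2.71%) and the ETS core in 16 (23.2%, against 8.86%). A match describes letters and is not a bound site. The windows of the muscle isoforms Cox7a1 (chr7:30183921-30184220, plus strand) and Cox8b (chr7:140900397-140900696, minus strand) are shown because they held none of the 4 motifs, that of Cox6a1 (chr5:115348909-115349208, minus strand), the general form beside Cox6a2, and that of Sdhb (chr4:140961021-140961320, plus strand), among the members of widest spread, because they held NRF1 and ETS cores, and that of Ndufa11 (chr17:56717512-56717811, plus strand) because it held a RORE core on its reverse strand and an NRF1 core. Capitals mark the motifs, and all are written 5′ to 3′.
Cox7a1: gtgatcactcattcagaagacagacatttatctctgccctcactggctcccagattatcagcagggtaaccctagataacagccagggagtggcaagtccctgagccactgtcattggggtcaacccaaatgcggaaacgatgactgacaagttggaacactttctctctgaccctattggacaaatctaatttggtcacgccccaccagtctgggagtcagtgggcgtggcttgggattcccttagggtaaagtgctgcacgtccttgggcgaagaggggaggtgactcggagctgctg
Cox8b: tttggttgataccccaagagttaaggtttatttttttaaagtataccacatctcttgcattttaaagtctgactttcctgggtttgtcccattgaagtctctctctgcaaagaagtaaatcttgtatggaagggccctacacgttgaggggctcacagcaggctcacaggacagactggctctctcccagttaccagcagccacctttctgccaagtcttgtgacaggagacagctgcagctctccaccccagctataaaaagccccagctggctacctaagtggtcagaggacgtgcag
Cox6a1: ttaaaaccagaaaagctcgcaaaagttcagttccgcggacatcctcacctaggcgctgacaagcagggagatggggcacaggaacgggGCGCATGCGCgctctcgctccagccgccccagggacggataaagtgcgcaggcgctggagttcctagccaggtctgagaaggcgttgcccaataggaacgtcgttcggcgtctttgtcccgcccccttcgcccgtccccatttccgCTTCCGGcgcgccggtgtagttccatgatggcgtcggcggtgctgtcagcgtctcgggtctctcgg
Sdhb: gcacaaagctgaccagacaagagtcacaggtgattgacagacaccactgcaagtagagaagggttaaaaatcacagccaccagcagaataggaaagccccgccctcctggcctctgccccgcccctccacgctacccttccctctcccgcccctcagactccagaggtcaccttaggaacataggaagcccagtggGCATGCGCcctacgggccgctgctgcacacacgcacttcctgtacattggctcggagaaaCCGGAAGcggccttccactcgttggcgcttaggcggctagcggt
Ndufa11: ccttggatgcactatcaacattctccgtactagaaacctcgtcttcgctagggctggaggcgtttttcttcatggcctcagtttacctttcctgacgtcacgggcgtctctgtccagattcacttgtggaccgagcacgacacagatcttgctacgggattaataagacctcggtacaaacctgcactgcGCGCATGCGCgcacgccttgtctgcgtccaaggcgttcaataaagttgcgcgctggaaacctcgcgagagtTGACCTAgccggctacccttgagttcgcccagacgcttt

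Across the chain, no subunit gene met the study's criteria for a difference between the labels, which ask for 1.5-fold or more together with an adjusted p no higher than 0.05. With limma and Benjamini-Hochberg adjustment over all tested probes, 0 of 73 members were called, as were 0% of the 11580 genes tested, and the smallest adjusted p among the members was 0.998. At an unadjusted p no higher than 0.05, 0 members were higher and 2 were lower in Rev-/-, Uqcrq and Ndufa2, against 1.22% higher and 1.95% lower among all genes. All 73 members lay within 1.5-fold. By position, the 3 Rev-/- arrays lay wholly above the 3 WT arrays for 1 member, Uqcrc1, or 1.37% of members, against 3.49% of all genes, and wholly below them for 2 members, Ndufa2 and Uqcrq, or 2.74%, against 4.71%. These shares are near or below the background. With 3 arrays against 3, the exact permutation test, 2-sided, cannot give a p below 0.1, and 3 members reached it. In bulk RNA, fewer cells of a type and less RNA per cell cannot be told apart, which holds for every level below.

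The members leaned to one side by small amounts. Of 73, 60 had a negative fold change and 13 a positive one (82.2% negative, against 52.3% of all genes). The negative share was 95.9% with array medians aligned, 98.6% without normalization, 71.2% under cyclic loess and 64.4% with array weights. The members had a median fold change of −0.073, against −0.0052 over all genes and −0.024 over the 719 genes at least as bright as the members' lower quartile. The members' standard errors ran from 0.057 to 0.24 with a median of 0.12, and 44 of the 73 fold changes were smaller than their own error. By complex, the median was −0.069 for complex I, −0.20 for complex II, −0.11 for complex III, −0.082 for complex IV and −0.045 for complex V. That of complex II, over 3 genes, was −0.048 on the probes of largest spread, −0.11 on the mean of kept probes and −0.46 with array medians aligned. The lean rested on array Rev-/- 1. Without it the median of the members was 0.033, and 44 of the 73 were positive and 29 negative.

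**Figure D1:**
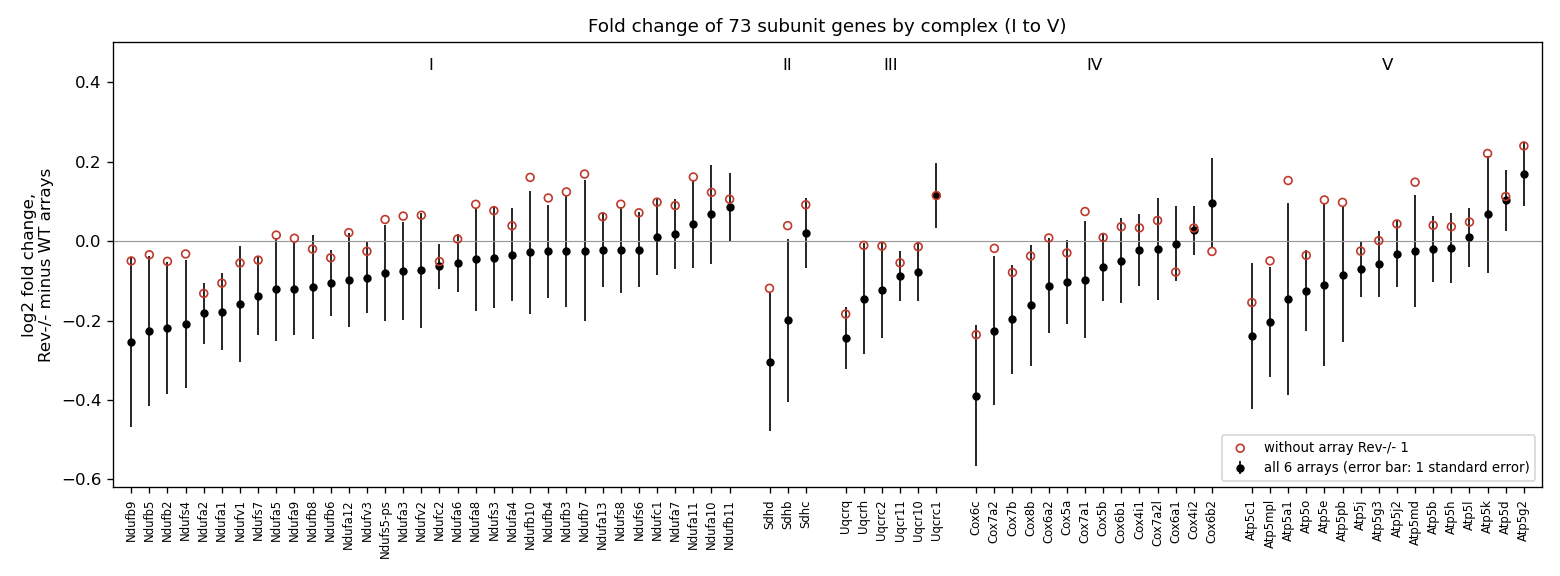
Log2 fold change, Rev-/- minus WT, of the 73 tested members by complex and gene, from all 6 arrays (filled points, bars of 1 standard error) and without array Rev-/- 1 (open points). With all arrays the medians of the complexes run from −0.20 to −0.045, and without Rev-/- 1 from −0.014 to 0.046.

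The same dependence showed in the values of single arrays. A score was computed as the median over the members of each gene's deviation from its mean over the 6 arrays. It was −0.24 on Rev-/- 1, 0.069 on Rev-/- 2 and 0.063 on Rev-/- 3, against 0.047, 0.084 and −0.029 on WT 1, 2 and 3. Rev-/- 2 and 3 thus lay within the range of the WT arrays, and Rev-/- 1 lay below every other array. Rev-/- 1 had the lowest value of the 6 arrays for 62 of the 73 members (84.9%), against 25.1% of all genes and 38.8% of the 719 bright genes. The median difference of Rev-/- 1 from the mean of the other 5 arrays was −0.29 for the members and −0.012 for all genes. It was −0.30 in complex I, −0.63 in complex II, −0.25 in complex III, −0.24 in complex IV and −0.24 in complex V. Bone and neutrophil markers were high on the same array, and their part in the low values was not tested.

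**Figure D2:**
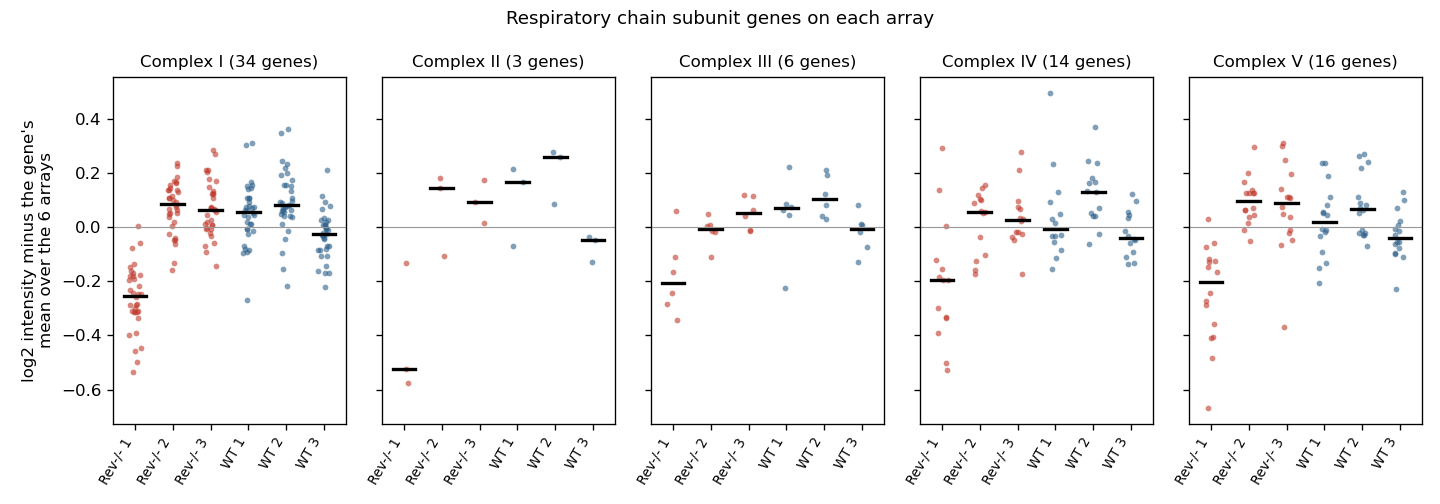
Deviation of each tested member from its mean over the 6 arrays (log2), by complex and array (points are genes, bars their median), Rev-/- arrays left of WT arrays. The median of Rev-/- 1 is the lowest in every complex and is −0.24 over all members, where those of Rev-/- 2 and 3 lie within the WT range. In complex V the medians of Rev-/- 2 and 3 (0.099 and 0.092) lie above all WT arrays (−0.041 to 0.067). That of Rev-/- 2 lies just above them in complex I (0.088, against 0.082 at most) and just below them in complex III (−0.0048, against −0.0044 at least).

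Complex I takes electrons from NADH. Of its 35 genes 34 were tested, 29 with a negative and 5 with a positive fold change, between −0.25 and 0.086. Ndufa2, an accessory subunit of the arm that projects into the matrix, was the member of the complex with the smallest p. Its log2 signal was 12.34, 12.51 and 12.47 on the Rev-/- arrays, against 12.70, 12.52 and 12.65 on the WT arrays. All Rev-/- values lay below all WT values, with the nearest pair almost equal, and the fold change was −0.18 (SE 0.077, unadjusted limma p 0.049, adjusted p 0.998). The 2 members with the lowest fold changes, the membrane arm subunits Ndufb9 and Ndufb5, owed them to 1 array. Ndufb9 had 8.89, 9.29 and 9.71 in Rev-/-, against 9.74, 9.66 and 9.26 in WT, with a fold change of −0.25 (SE 0.21) that was −0.050 without Rev-/- 1. Ndufb5 had 8.95, 9.40 and 9.66 in Rev-/-, against 9.50, 9.82 and 9.38 in WT, with a fold change of −0.23 (SE 0.19) that was −0.035 without Rev-/- 1. In both the labels overlapped, and Rev-/- 1 was the lowest array.

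Ndufv1, the core subunit that binds NADH and the flavin, had 12.61, 13.03 and 12.80 in Rev-/-, against 12.83, 13.24 and 12.85 in WT. The labels overlapped and the fold change was −0.16 (SE 0.15), and −0.055 without Rev-/- 1. Ndufs1, the largest core subunit, could not be compared because its probe was not above background. The highest fold changes of the complex were those of Ndufb11, a membrane arm subunit, and Ndufa10, an accessory subunit of the matrix side of the membrane arm. Ndufb11 had 7.17, 7.22 and 7.23 in Rev-/-, against 7.24, 6.95 and 7.17 in WT (0.086, SE 0.086). Ndufa10 had 12.57, 12.81 and 12.65 in Rev-/-, against 12.37, 12.83 and 12.62 in WT (0.068, SE 0.12). They were the 2 members of the complex for which Rev-/- 1 was not the lowest array, and their labels overlapped. Ndufa11 and Ndufb10, whose promoter windows held the RORE core, had fold changes of 0.042 (SE 0.11) and −0.028 (SE 0.15).

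Complex II, succinate dehydrogenase, belongs to both the chain and the citrate cycle and had the largest median difference on Rev-/- 1 of the 5 complexes. Sdhb, its iron-sulfur subunit, had 10.42, 11.18 and 11.10 in Rev-/-, against 11.17, 11.26 and 10.87 in WT. Rev-/- 1 was low alone, Rev-/- 2 and 3 lay among the WT arrays, and the fold change of −0.20 (SE 0.21) became 0.039 without that array. On the other Sdhb probes above background the fold changes from all arrays were −0.096 and −0.048. Sdhd, one of the membrane anchors, had 8.10, 8.52 and 8.80 in Rev-/-, against 8.84, 8.90 and 8.59 in WT, with a fold change of −0.30 (SE 0.17, unadjusted limma p 0.12). It overlapped between labels through Rev-/- 3 and WT 3, and its fold change was −0.12 without Rev-/- 1. Sdhc, the other anchor, had 11.23, 11.51 and 11.38 in Rev-/-, against 11.30, 11.45 and 11.32 in WT, and its fold change was 0.020 (SE 0.089) under quantile normalization and turned negative when array medians were aligned. Sdha, the flavoprotein, was not above background. The score of the 3 tested subunits was −0.52, 0.15 and 0.095 on the Rev-/- arrays, against 0.17, 0.26 and −0.045 on the WT arrays.

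Complex III hands electrons from ubiquinol to cytochrome c, and it held both kinds of non-overlap. Uqcrq, a small accessory subunit, had 8.20, 8.33 and 8.43 in Rev-/-, against 8.53, 8.64 and 8.52 in WT. Every Rev-/- value was below every WT value, and the fold change of −0.24 (SE 0.078) had an unadjusted limma p of 0.016 and an adjusted p of 0.998. Without Rev-/- 1 it was −0.18. Uqcrc1, a core protein of the matrix side, went the other way, with 11.9943, 11.9849 and 11.9994 in Rev-/-, against 11.7109, 11.9754 and 11.9465 in WT. The margin between the labels was small beside the low value of WT 1, the fold change was 0.12 (SE 0.082), and it turned negative when array medians were aligned. Uqcrh, the hinge protein that contacts cytochrome c1, had 13.21, 13.56 and 13.67 in Rev-/-, against 13.77, 13.68 and 13.43 in WT (−0.15, SE 0.14), and the small subunit Uqcr10 had 13.58, 13.75 and 13.78 in Rev-/-, against 13.82, 13.77 and 13.75 in WT (−0.078, SE 0.074). Both overlapped between labels, with Rev-/- 1 low, and without it the fold changes were −0.011 for Uqcrh and −0.014 for Uqcr10. Uqcrfs1, the Rieske iron-sulfur protein, was above background on 1 array only and was not tested.

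Complex IV, cytochrome c oxidase, had 14 tested genes of 16. The muscle isoforms were measured well above background. Cox6a2 had 13.51, 13.91 and 13.84 in Rev-/-, against 13.94, 13.94 and 13.72 in WT (−0.11, SE 0.12). Cox7a1 had 11.76, 12.30 and 12.25 in Rev-/-, against 12.10, 12.32 and 12.19 in WT (−0.097, SE 0.15). Cox8b had 13.18, 13.56 and 13.54 in Rev-/-, against 13.43, 13.88 and 13.47 in WT (−0.16, SE 0.15). In all 3 the labels overlapped and Rev-/- 1 was lowest. Without that array the fold changes of Cox6a2, Cox7a1 and Cox8b were 0.0078, 0.074 and −0.038. Their median fold change was −0.11 and 0.0078 without Rev-/- 1, and that of the other 11 tested genes of the complex was −0.049 and −0.018 without it. Their scores were −0.33, 0.10 and 0.034 on the Rev-/- arrays, against −0.056, 0.17 and −0.045 on the WT arrays, so the WT arrays spanned both values of Rev-/- 2 and 3 and Rev-/- 1 lay outside.

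The general isoforms lay on opposite sides on Rev-/- 1. Cox6a1 had 12.13, 11.87 and 11.97 in Rev-/-, against 12.09, 12.04 and 11.86 in WT, with Rev-/- 1 the highest array, and its fold change was −0.0070 (SE 0.094). Cox7a2 had 8.25, 8.90 and 8.85 in Rev-/-, against 9.01, 9.01 and 8.64 in WT, with Rev-/- 1 the lowest. Its fold change was −0.23 (SE 0.19), and −0.018 without Rev-/- 1. For each isoform pair the difference of the 2 log2 values was taken within an array, which shows unequal change and not which isoform changed. For Cox6a2 minus Cox6a1, in deviations from the mean over arrays, it was −0.44, 0.23 and 0.049 in Rev-/-, against 0.037, 0.079 and 0.043 in WT. Rev-/- 1 lay below and Rev-/- 2 above all WT arrays, the labels differed by −0.11 (SE 0.20, exact permutation p 0.9, 2-sided, adjusted 0.9 over 2 pairs) and by 0.086 without Rev-/- 1. For Cox7a1 minus Cox7a2 it was 0.14, 0.027 and 0.029 in Rev-/-, against −0.29, −0.069 and 0.17 in WT, a difference of 0.13 (SE 0.14, exact permutation p 0.5, adjusted 0.9). The labels overlapped in both pairs. No probe used here carried the symbol Cox8a, so the third pair was not computed.

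**Figure D3:**
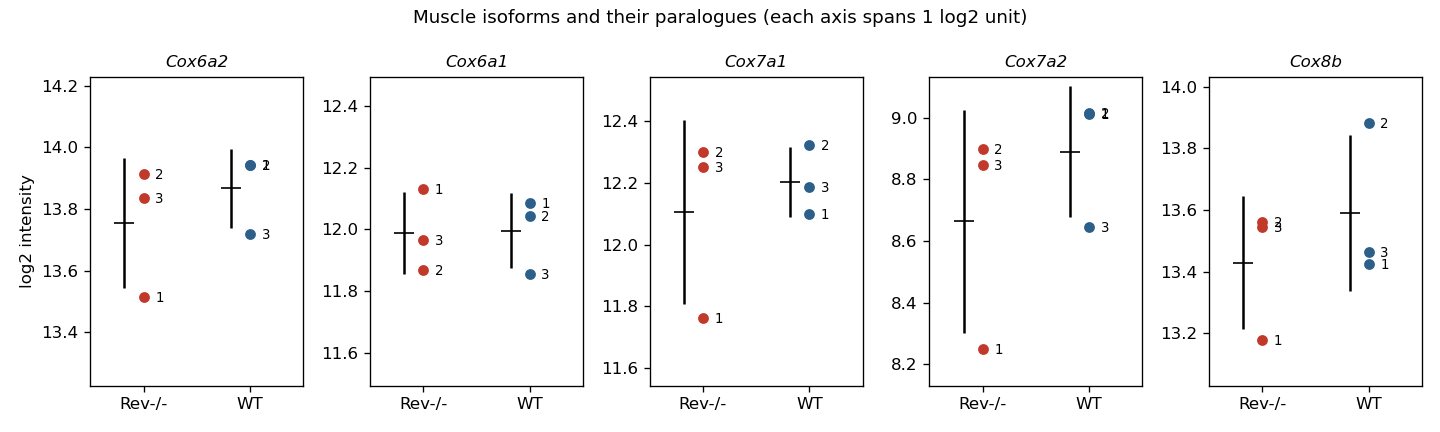
Log2 signal of the muscle isoforms Cox6a2, Cox7a1 and Cox8b and of the general isoforms Cox6a1 and Cox7a2 on each array (points, numbered by replicate), with the mean and SD of each label (n = 3), Rev-/- left of WT. The muscle isoforms and Cox7a2 are lowest on Rev-/- 1, where Cox6a1 is highest at 12.13, and levels of different probes are not to be compared.

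Among the other subunits of complex IV, Cox6c, a small subunit of the membrane domain, had the lowest fold change of all members. It had 10.78, 11.37 and 11.11 in Rev-/-, against 11.78, 11.33 and 11.33 in WT. The fold change was −0.39 (SE 0.18, unadjusted limma p 0.063), and −0.24 without Rev-/- 1. The labels overlapped through Rev-/- 2, and the range of 0.998 between the highest and lowest array was the widest of any tested member. Cox4i1, the regulatory subunit found in most tissues, had 13.47, 13.65 and 13.62 in Rev-/-, against 13.48, 13.75 and 13.575 in WT (−0.022, SE 0.091), and Cox5a, which lies on the matrix side, had 12.75, 13.01 and 12.93 in Rev-/-, against 12.91, 13.19 and 12.89 in WT (−0.10, SE 0.11). Both overlapped. The highest fold changes were those of Cox6b2, known as a testis form, and Cox4i2, a form known from lung and hypoxia. Cox6b2 had 7.37, 6.98 and 7.03 in Rev-/-, against 6.93, 7.12 and 7.05 in WT, so that Rev-/- 1 was high alone, and the fold change of 0.096 (SE 0.11) was −0.026 without it. Cox4i2 lay near background, above it on 4 arrays, at 6.75, 6.71 and 6.82 in Rev-/-, against 6.77, 6.72 and 6.70 in WT (0.028, SE 0.062). Cox7b, whose promoter window held the RORE core, had a fold change of −0.20 (SE 0.14) that was −0.079 without Rev-/- 1.

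Complex V, the ATP synthase, had all 16 genes tested, 12 with a negative and 4 with a positive fold change. Atp5g2, one of the genes for subunit c of the membrane ring, had the highest fold change of all members. It had 10.47, 10.73 and 10.64 in Rev-/-, against 10.40, 10.46 and 10.47 in WT, and the fold change was 0.17 (SE 0.080, unadjusted limma p 0.071). Rev-/- 2 and 3 were above all WT arrays and Rev-/- 1 at their upper edge, and the sign turned when array medians were aligned. Atp5d, the delta subunit of the central stalk, had 11.58, 11.59 and 11.62 in Rev-/-, against 11.40, 11.64 and 11.45 in WT (0.10, SE 0.077), also turned by that alignment. In the catalytic head both fold changes were smaller than their errors. Atp5a1, the alpha subunit, had 9.77, 10.58 and 10.75 in Rev-/-, against 10.42, 10.70 and 10.41 in WT. Rev-/- 1 lay 0.80 below the mean of the other arrays, and the fold change of −0.15 (SE 0.24) was 0.15 without it. Atp5b, the beta subunit, had 14.49, 14.61 and 14.73 in Rev-/-, against 14.73, 14.60 and 14.56 in WT (−0.020, SE 0.084), near the top of the scale.

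The lowest fold changes of complex V were those of Atp5c1, the gamma subunit that turns in the head, and Atp5mpl, a small membrane subunit. Atp5c1 had 11.67, 12.26 and 11.59 in Rev-/-, against 12.20, 12.18 and 11.86 in WT, with a fold change of −0.24 (SE 0.18), and its lowest array was Rev-/- 3. Atp5mpl had 12.98, 13.45 and 13.43 in Rev-/-, against 13.62, 13.47 and 13.37 in WT, with a fold change of −0.20 (SE 0.14) that was −0.050 without Rev-/- 1. On the other Atp5mpl probe above background it was −0.028. In both the labels overlapped.

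The members differed in how far their 6 arrays spread. The standard deviation over the 6 arrays had a median of 0.16 over the members, against 0.11 over all genes. After Cox6c the widest ranges were those of Atp5a1 (0.98), Ndufb5 (0.86), Ndufb9 (0.85), Sdhb (0.84) and Sdhd (0.80). In all 6 of these genes Rev-/- 1 was the lowest array. At the other end, 11 members did not have their lowest value there, namely Ndufa10, Ndufb11, Uqcrc1, Cox7a2l, Cox4i2, Cox6a1, Cox6b2, Atp5c1, Atp5l, Atp5g2 and Atp5d. Of the 22 members with more than 1 probe above background, 13 had the same sign of fold change on all their probes, and 9 did not. They are counted by their brightest probe.

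Other genes of the same pathway, in lists that hold no member, also had 0 genes called in each by limma. The subunits encoded in mitochondrial DNA, of which 7 were tested, had a median fold change of 0.0074, and 0 of them had an unadjusted p up to 0.05. ND5, a proton-pumping subunit of complex I and the one with the smallest p, had 9.36, 9.11 and 9.52 in Rev-/-, against 8.44, 9.15 and 9.25 in WT (0.38, SE 0.22). The labels overlapped, and WT 1 was low alone. The 4 chain genes that the symbol rule misses, Ndufab1, Cyc1, Cycs and Atpif1, had a median of −0.042, and Atpif1, the inhibitor of the ATP synthase, had a fold change of 0.17 (SE 0.14). Assembly factors had a median of −0.064 over 40 genes (34 negative), ubiquinone synthesis and electron entry −0.065 over 14, the citrate cycle −0.11 over 15, the mitochondrial ribosome −0.043 over 74, mitochondrial membranes and chaperones −0.094 over 18 and glycolysis −0.029 over 14. Unadjusted p-values up to 0.05 went to 1 lower gene of the citrate cycle and to 1 higher and 2 lower genes of the mitochondrial ribosome, and to 0 genes of the other lists just named. Of these, the gene of smallest p was Cox11 (−0.14, SE 0.072), a copper chaperone of complex IV, Etfa (−0.15, SE 0.083), a subunit of the electron transfer flavoprotein, Idh2 (−0.39, SE 0.16), an isocitrate dehydrogenase, Mrps15 (−0.29, SE 0.095), a small-subunit ribosomal protein, Hspa9 (−0.15, SE 0.071), the matrix chaperone, and Pfkm (−0.13, SE 0.082), muscle phosphofructokinase.

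Among 18 tested regulators of mitochondrial genes the median was −0.0025, and 1 had an unadjusted p up to 0.05, which was lower. This gene, Tfam, which packs and transcribes mitochondrial DNA, had 8.56, 8.53 and 8.50 in Rev-/-, against 8.69, 8.72 and 8.76 in WT. All Rev-/- values lay below all WT values and no array stood apart, with a fold change of −0.19 (SE 0.057, unadjusted limma p 0.012, adjusted p 0.998). Ppargc1a, the coactivator of mitochondrial biogenesis, had 7.55, 7.86 and 7.98 in Rev-/-, against 7.90, 8.03 and 7.94 in WT (−0.16, SE 0.11), and Esrra, the estrogen-related receptor alpha, had a fold change of −0.00040 (SE 0.10). These overlapped between labels.

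The low level on Rev-/- 1 was shared by other lists, not all of them mitochondrial. The score on Rev-/- 1 was −0.17 for assembly factors, −0.27 for the citrate cycle, −0.16 for the mitochondrial ribosome and −0.20 for membranes and chaperones, each the lowest of its 6 arrays, and −0.26 for the transcripts of mitochondrial DNA. It was also lowest there for glycolysis (−0.13), sarcomere genes outside the fibre type lists (−0.16) and myoblast genes (−0.16). Slow fibre and oxidative muscle genes scored −0.34, 0.30 and 0.032 on the Rev-/- arrays, against −0.012, 0.18 and −0.072 on the WT arrays, so Rev-/- 1 was lowest there too. Fast fibre genes scored 0.018, −0.041 and 0.16 on the Rev-/- arrays, against −0.0043, 0.0024 and 0.023 on the WT arrays, and fibroblast genes 0.022, −0.051 and 0.062, against 0.090, −0.12 and −0.11. In those Rev-/- 1 lay within the range of the other arrays. Bone genes scored 3.27 and neutrophil genes 2.68 on Rev-/- 1.

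**Figure D4:**
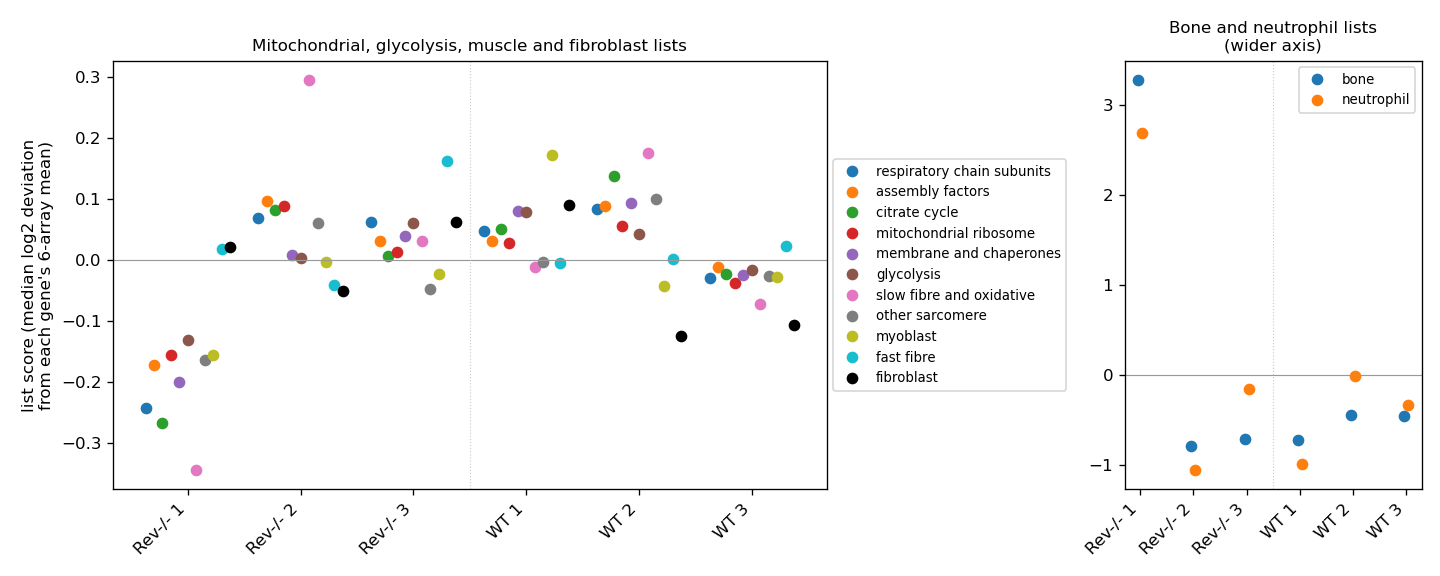
List scores, the median log2 deviation of a list's genes from their means over the 6 arrays, by array with Rev-/- arrays left of WT arrays, for mitochondrial, glycolysis, muscle and fibroblast lists (left) and, on a wider axis, bone and neutrophil lists (right). All lists of the left panel except fast fibre and fibroblast are lowest on Rev-/- 1, at −0.34 to −0.13, and the bone and neutrophil lists highest, at 3.27 and 2.68.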

How the data were processed

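Illumina Mouse WG-6 v2 bead arrays of 6 samples were analysed, 3 labelled Rev-/- and 3 labelled WT, grouped by their titles. Per the methods, the authors read the arrays with BeadStudio, subtracted background, applied lumi for quantile normalization and used limma for the tests. Processing notes of the submitters list GenomeStudio, lumi and limma (versions: not given in the sources used here). Values as deposited by the authors are intensity on a linear scale and did not share 1 distribution as quantile-normalized columns would. A further table with 12 columns named by array position (6 signals and their detection p-values) was not used, since nothing pairs a position with a sample.

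Intensities were quantile-normalized over 45281 probes and log2-transformed (R 4.3.3, limma 3.58.1). Background on each array was modelled as its most frequent intensity, with the lower side of that peak reflected to the upper side, and probes above its 95th percentile on at least 3 arrays were kept (21327, of which 18058 carried 1 symbol). In the platform annotation 34885 probes carried 1 symbol, 18 several and 10378 none. The kept probe of highest mean stood for a gene. limma's lmFit and eBayes compared the labels with no block, with p-values adjusted (Benjamini-Hochberg) over all kept probes with 1 symbol, and single values also with the exact permutation test. The steps were tested on simulated data, with independent values, no outlying array and shifts larger than 1.5-fold. That test does not bear on smaller changes or on an array like Rev-/- 1.

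The members and lists were chosen with earlier results of these data known. The genes named were, by rule, members called or with an unadjusted p up to 0.05, the muscle isoforms and their counterparts, the Sdh subunits, the 2 highest and 2 lowest fold changes in complexes I, III, IV and V, 8 core subunits, and the gene of smallest p in each other list. Ppargc1a, Esrra, the marker genes, the genes given for their promoter motifs or wide ranges, and those counted singly by position or lowest array were named after their values were seen. The alternatives tried were other normalizations, background, filters, array weights, variance prior, the replicate block, other probes per gene and each array left out. Signal over background limits the dim probes.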

Additional observations from a re-analysis of the deposited data

How the results depend on the processing

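With limma, 0 members were called under every alternative run, where 1 to 47 members had an unadjusted p of at most 0.05. In deviations from label means, same-numbered arrays correlated at −0.17, 0.12 and 0.051, and differently numbered ones at −0.24 to 0.15. With 3 arrays per label this cannot decide whether the numbers pair samples. With the replicate block 1 member, against 2 without it, had an unadjusted p of at most 0.05 (3.49% of all genes, against 3.17%). With normexp background correction 1 member did (2.72%), and with the filter on all 6 arrays 1 (2.91%). Leaving out an array gave 1 to 6 members. There were 6 without Rev-/- 3 (3.42% of all genes), 5 without Rev-/- 2 (6.33%), and 1 without WT 1 (3.16%) or WT 3 (3.26%). Wholly separate labels, 3 members in the report (8.20% of all genes), numbered 5 under cyclic loess (8.31% of all genes). With an array left out they numbered 4 to 12, where 3 arrays face 2 and 14.7% to 21.6% of all genes separate.

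Scaling moved several values. With array medians aligned, the median of all genes was −0.11 and of the 719 bright genes −0.27; 18 members had such a p (19.3% of all genes), 19 were separate (23.4%), and medians were −0.29 for the members, −0.30 for complex I, −0.46 for II, −0.31 for III, −0.28 for IV and −0.26 for V. Relative to all genes the members then stood at −0.18 and relative to the bright genes at −0.022. With deposited intensities unnormalized, the median of all genes was −0.16, 47 members had such a p (23.2%), 30 were separate (27.4%), and medians were −0.34 for the members, −0.35 for I, −0.51 for II, −0.35 for III, −0.33 for IV and −0.31 for V. Members with a negative fold change were 95.9% with medians aligned, 98.6% unnormalized, 71.2% under cyclic loess, 64.4% with array weights and 39.7% without Rev-/- 1, against 82.2%. Rev-/- 1 was the lowest array for 67 members with medians aligned, 55 under cyclic loess and 59 unnormalized. Under cyclic loess, array weights, both other probe choices and no filter, medians ran from −0.065 to −0.035 for the members, −0.064 to −0.035 for I, −0.20 to −0.048 for II, −0.13 to −0.049 for III, −0.072 to −0.023 for IV and −0.045 to −0.021 for V. With an array left out, that of the members was 0.033 without Rev-/- 1, −0.14 without Rev-/- 2, −0.11 without Rev-/- 3 and −0.044 without WT 2. The cause of these shifts was not tested.

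Signs turned with medians aligned for Ndufa10 (−0.15), Sdhc (−0.25), Uqcrc1 (−0.14), Atp5d (−0.17) and Atp5g2 (−0.089); under cyclic loess for Cox4i1 (0.036) and Atp5b (0.12); with array weights for Atp5b (0.023); and unnormalized for Ndufb11 (−0.028), Ndufa10 (−0.20), Sdhc (−0.29), Uqcrc1 (−0.19), Cox4i2 (−0.024), Atp5d (−0.21) and Atp5g2 (−0.14). With an array left out, the difference Cox6a2 minus Cox6a1 ran from −0.25 to 0.086, and fold changes from −0.00050 to 0.15 for Ndufb11, −0.050 to 0.18 for Ndufa10, −0.34 to 0.039 for Sdhb, −0.049 to 0.091 for Sdhc, −0.085 to 0.053 for Cox4i1, −0.078 to 0.053 for Cox6a1, −0.19 to 0.0078 for Cox6a2, −0.026 to 0.17 for Cox6b2, −0.0032 to 0.053 for Cox4i2, −0.19 to 0.074 for Cox7a1, −0.34 to 0.15 for Atp5a1 and −0.080 to 0.040 for Atp5b. The difference Cox8b minus Cox8a was not run, since no probe used here carried the symbol Cox8a.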
